A study of Mus musculus with 12 samples.

Results

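The C1q and complement receptor genes described here are 7 genes of the complement system, C1qa, C1qb, C1qc, C3, C3ar1, C5ar1 and C4b, out of 47643 genes in the count table, of which 18571 had at least 1 count. They were chosen by name, and all 7 were found. Cells were taken from the brains of 5 old male p16-3MR mice on a C57BL/6 background, aged 113, 115, 116, 116 and 116 weeks (mice 1 to 5). The p16 promoter of their transgene drives 1 joined reporter, made of mRFP, a luciferase and a truncated viral thymidine kinase (tTK). The sort thus reads that promoter's activity through the reporter protein. After dissociation with a cold-active protease and removal of myelin on Percoll, viable nucleated cells (DAPI negative, Draq5 positive) of each mouse were sorted into RFPneg cells with low reporter signal and RFPpos cells with high signal. Each mouse gave 1 RFPneg and 1 RFPpos bulk RNA library, and no animals were pooled. Both populations carry the same transgene, so by design they differ only in the gate. Their libraries also differed in cell type markers and in the share of reads on no gene, as given below. Samples with the same number in their titles were taken as the same mouse. The question is how the complement genes differ between the populations of the same mouse.

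Complement is a cascade of proteins that tags particles and cells for removal. C1q, a bundle of A, B and C chains, recognises its targets and sets off cleavage of C4, C2 and C3; fragments of C3 then mark the surface for phagocytes that carry complement receptors, and the small fragments C3a and C5a attract and activate cells through their own receptors. In the brain, microglia are the main makers of C1q, and C1q and C3 take part in the removal of synapses during development.

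The chains lie side by side. C1qb, C1qc and C1qa (ENSMUSG00000036905, ENSMUSG00000036896 and ENSMUSG00000036887) follow each other on the minus strand of chromosome 4 in GRCm38, within 18.7 kb from position 136880129 to 136898803, with 3616 bases between C1qb and C1qc and 2851 bases between C1qc and C1qa. C3ar1 (ENSMUSG00000040552) is at chr6:122847138-122856161, C5ar1 (ENSMUSG00000049130) at chr7:16246743-16259540, C4b (ENSMUSG00000073418) at chr17:34728380-34743882 and C3 (ENSMUSG00000024164) at chr17:57203970-57228136, all on the minus strand. All 7 code for proteins. C4b has a near-identical neighbour, C4a, so its counts are uncertain, and a microRNA gene lies within C3.

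Promoters are shown for 3 members that rose together, C1qb, C1qc and C3ar1. The 250 bases before the RefSeq (GRCm38.p6) start were obtained for 5 of the 7 members. The set of promoter windows used here did not include C1qa or C4b. Bases inside the longer GENCODE gene model, 151 for C1qc and 4 for C3ar1, are left out of what is printed. In chr4:136886201-136886450, chr4:136893066-136893164 and chr6:122856162-122856407, read 5′ to 3′ on the minus strand, capitals mark matches to GAGGAA, a core of sites for the myeloid ETS factor PU.1, and to TGANTCA, the site of AP-1 factors, on either strand.
C1qb: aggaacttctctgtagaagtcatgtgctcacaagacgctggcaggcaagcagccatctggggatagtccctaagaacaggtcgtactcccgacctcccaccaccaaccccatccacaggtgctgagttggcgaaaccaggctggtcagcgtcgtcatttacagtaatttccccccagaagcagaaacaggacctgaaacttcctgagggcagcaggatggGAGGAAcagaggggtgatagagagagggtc
C1qc: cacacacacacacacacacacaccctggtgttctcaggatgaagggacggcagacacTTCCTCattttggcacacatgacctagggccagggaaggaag
C3ar1: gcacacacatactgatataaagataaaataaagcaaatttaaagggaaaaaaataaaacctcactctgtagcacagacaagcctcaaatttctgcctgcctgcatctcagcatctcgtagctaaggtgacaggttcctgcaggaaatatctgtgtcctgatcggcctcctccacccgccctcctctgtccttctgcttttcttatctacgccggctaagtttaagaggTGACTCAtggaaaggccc
The GAGGAA match begins 30 bases before the RefSeq start of C1qb and 193 bases before that of C1qc, where it reads on the other strand. The TGANTCA match begins 22 bases before the start of C3ar1. Of 32851 windows of 250 bases, 23.3% held GAGGAA and 6.75% held TGANTCA on either strand, so the first is a common stretch of letters. A longer composite motif of ETS and IRF factors was in no member's window, and those of C3 and C5ar1 held no match to any of the motifs. A match is no evidence of binding.

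Libraries were shallow. The RFPneg samples of mice 1 to 5 had 177287, 196103, 415834, 248471 and 299680 gene counts and the RFPpos samples 222560, 289713, 223052, 250482 and 242798, so a single count was worth between 2.40 and 5.64 CPM. The unit CPM is a gene's count divided by all gene counts of its library and multiplied by 1e6. The libraries count tags at the 3′ end, so a count should not grow with transcript length, and CPM levels are set side by side on that basis. Whether counts are of molecules or of reads is not known here, so a level is a share of counts, not a number of transcripts. Fold changes come from edgeR's quasi-likelihood fit on the counts with TMM scaling and the mouse as a block, and are log2 of RFPpos over RFPneg with their standard error (SE). A gene was tested where at least 5 samples reached 40.7 CPM, which left 4210 genes, and called where its Benjamini-Hochberg adjusted p over those genes was under 0.05. Genes under that level but with at least 10 counts in all were tested in the same model on 12270 genes. Of the 7 members, 4 passed the first filter with all 10 samples above it, 2 only the second, and C3 neither.

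C1qa, C1qb, C1qc and C3ar1 were higher in the RFPpos sample of all 5 mice, by about the same factor as a core list of microglia genes, and their CPM ranges in the populations did not overlap. C3, C4b and C5ar1 were close to the limit of detection. Of the 4 members in the first fit, 4 were called higher, where 10.1% of the 4210 genes were called higher and 11.6% lower. All 4 also had CPM ranges that did not overlap between the populations. RFPpos lay wholly above RFPneg for 8.05% of the 4210 genes and wholly below for 7.93%. The ranges of C3, C4b and C5ar1, which are not among the 4210 genes, overlapped. With the library sizes set to the summed counts of the microglia core, the calls of these 4 members were lost and the signs of C1qb and C1qc turned. In bulk samples, fewer cells of a type and less RNA per cell cannot be told apart.

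**Figure D1:**
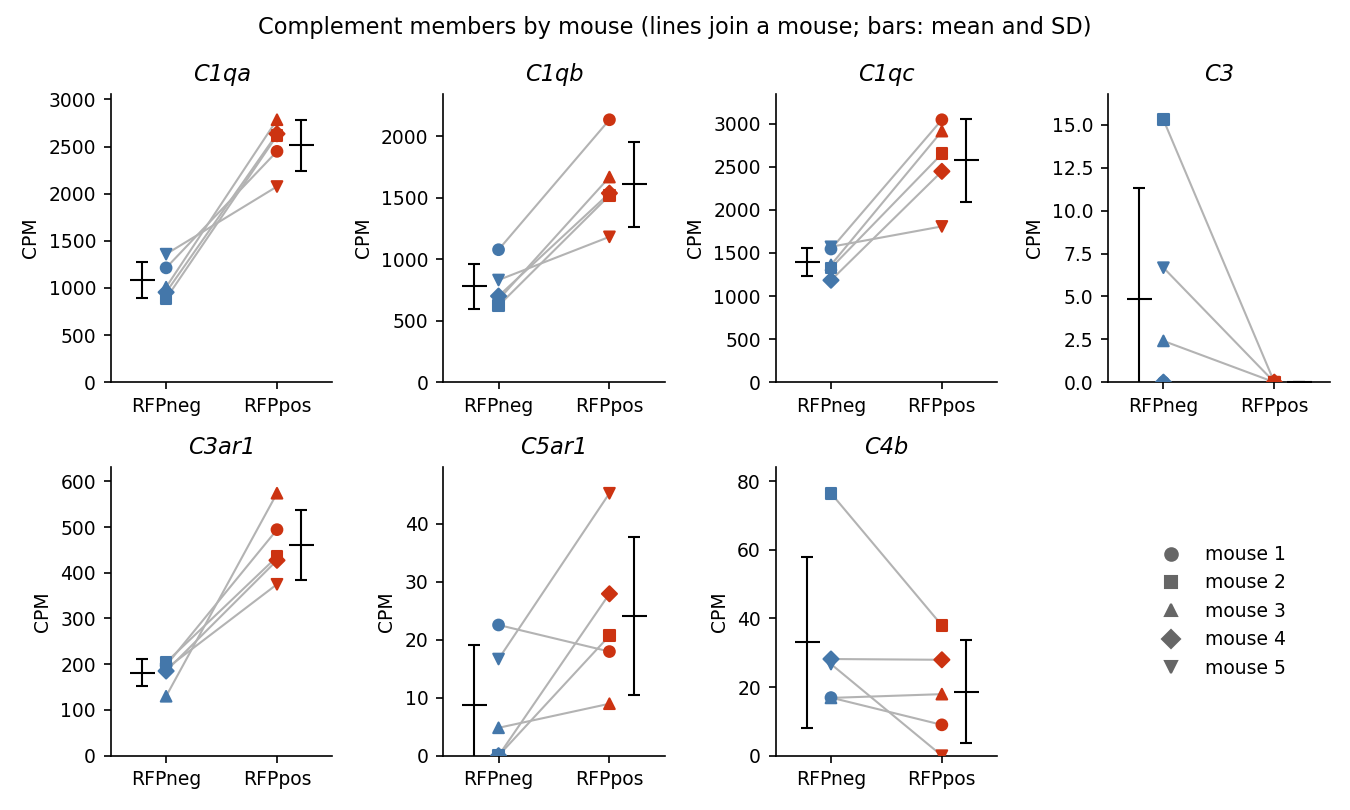
CPM of the 7 members in the RFPneg (blue) and RFPpos (red) sample of each of 5 mice, with lines joining the samples of a mouse and bars for the mean and SD. C1qa, C1qb, C1qc and C3ar1 lie higher in every RFPpos sample than in any RFPneg sample as a share of all counts, although relative to the microglia core C1qb and C1qc turn to −0.09 and −0.28 on the log2 scale; C3 is at 0 in all RFPpos samples.

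C1qa, the A chain, was at 1213, 887, 1008, 954 and 1358 CPM in RFPneg samples of mice 1 to 5, and at 2449, 2616, 2784, 2635 and 2076 CPM in the RFPpos samples. The lowest RFPpos value, that of mouse 5, was above the highest RFPneg value, which came from the same mouse, so mouse 5 showed the smallest step. The means were 1084 ± 196 and 2512 ± 271 CPM (SD, n = 5), and the log2 fold change was 1.22 (SE 0.177, edgeR adjusted p = 5.61e-05).

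C1qb, the B chain, was at 1077, 622, 671, 700 and 831 CPM in RFPneg and at 2134, 1519, 1668, 1537 and 1182 CPM in RFPpos. Mouse 1 was highest in both populations, and the ranges were separated by about 100 CPM. Its log2 fold change was 1.04 (SE 0.174, edgeR adjusted p = 2.30e-04).

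C1qc, the C chain, was at 1546, 1326, 1361, 1183 and 1572 CPM in RFPneg and at 3046, 2651, 2914, 2447 and 1808 CPM in RFPpos. The step was again smallest in mouse 5, whose RFPpos sample was the lowest of its population for all 3 chains. Its log2 fold change was 0.86 (SE 0.175, edgeR adjusted p = 0.00130). That RFPpos sample also had the largest share of reads on no gene, 48.6%, where the other RFPpos samples had 38.4% to 42.1% and the RFPneg samples 32.1% to 37.2%; the part of this in the result was not tested.

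The chains were among the most abundant transcripts of the sorted cells. By mean CPM, C1qc ranked 34 of the 18571 genes with a count in RFPneg and 22 in RFPpos, C1qa 48 and 23, and C1qb 72 and 33. In RFPneg the order was C1qc, C1qa and C1qb, at 1397 ± 162, 1084 ± 196 and 780 ± 183 CPM (SD, n = 5). In RFPpos, C1qc at 2573 ± 487 and C1qa at 2512 ± 271 CPM differed by less than their spread, and C1qb followed at 1608 ± 345 CPM. C3ar1 came next at 181 ± 29.6 CPM in RFPneg and 461 ± 76.0 CPM in RFPpos, ranks 737 and 210. C4b, C5ar1 and C3 were all under 35 CPM on average in both populations, and their spreads overlapped.

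Because A, B and C chains join in a single protein, their proportions were compared. The C1qa to C1qc count ratio was 0.785, 0.669, 0.740, 0.806 and 0.864 in RFPneg of mice 1 to 5 and 0.804, 0.987, 0.955, 1.08 and 1.15 in RFPpos. It was higher in the RFPpos sample of all 5 mice, by little in mouse 1, and the ranges overlapped through that mouse. The mean difference in the log2 ratio was 0.36 ± 0.19 (SD, n = 5; two-sided exact permutation within mice, p = 0.0625, the smallest that 5 pairs can give). The C1qa to C1qb ratio rose in log2 by 0.18 ± 0.12 and the C1qb to C1qc ratio by 0.18 ± 0.13 (SD, n = 5), each higher in 5 of 5 mice with the same exact p of 0.0625, as after Benjamini-Hochberg adjustment over the 3 ratios. With 5 pairs no such test can pass 0.05.

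As shares of all C1q counts, C1qa went from 33.2% ± 1.92 in RFPneg to 37.8% ± 3.44 in RFPpos, and C1qc from 43.1% ± 2.63 to 38.2% ± 1.83 (SD, n = 5). C1qb held a like share in both, 23.8% ± 2.67 and 23.9% ± 2.31. In mouse 1 the C1qa share was 31.6% (95% Wilson interval 28.2 to 35.2) in RFPneg and 32.1% (29.9 to 34.4) in RFPpos, a difference not detectable at this depth. In mouse 2 it was 31.3% (27.6 to 35.3) and 38.6% (36.4 to 40.7), intervals that do not touch, as in mouse 4, while those of mice 1, 3 and 5 overlap. These intervals cover counting error only.

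**Figure D2:**
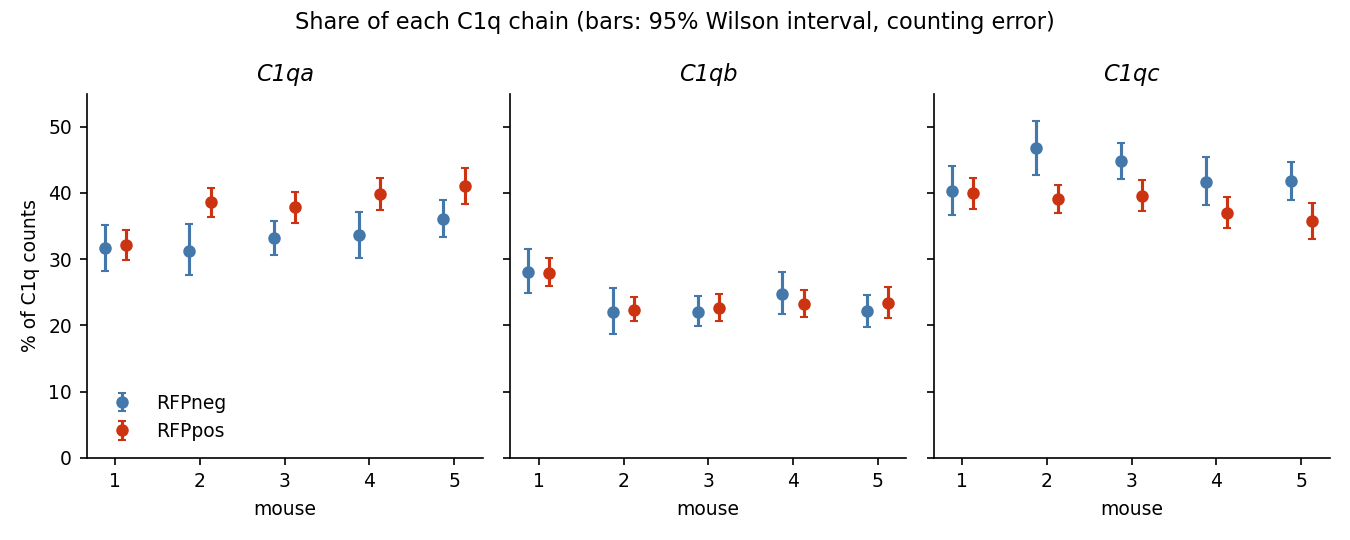
Share of each chain in the C1q counts of each sample (%), by mouse, RFPneg in blue and RFPpos in red, with 95% Wilson intervals for counting error. The C1qa share is higher and the C1qc share lower in RFPpos of all 5 mice, with mouse 1 nearly level, and C1qb is near 24% in both populations.

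The bulk populations differ in their share of microglia transcripts, so C1q was set against 20 microglia core genes. Their summed counts made up 1.96%, 1.28%, 1.36%, 1.26% and 1.81% of gene counts in RFPneg and 3.73%, 3.27%, 3.40%, 3.33% and 2.95% in RFPpos. The ranges did not overlap, and 20 of the 20 genes were called higher, where 10.1% of the 4210 genes were. The log2 fold changes of the 20 ran from 0.63 to 1.68 with a median of 1.19, where that of all 4210 genes was −0.03. Relative to the core sum, 2 of the 20 were called higher and 2 lower, where 0.261% and 74.0% of all tested genes were. The most abundant of the 20 was Ctss, a lysosomal protease, at 4144 CPM on average in RFPneg and 9711 CPM in RFPpos, and none was at 0. The defining microglia markers Tmem119, P2ry12 (a purine receptor) and Cx3cr1 (the fractalkine receptor) rose by 1.21, 1.02 and 0.90 on the log2 scale.

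There were 19.6, 22.1, 22.3, 22.5 and 20.7 C1q counts per 100 core counts in RFPneg, and 20.4, 20.7, 21.7, 19.9 and 17.2 in RFPpos. The ranges overlapped, 4 of 5 mice were lower in RFPpos, and mouse 5 fell furthest. The mean log2 difference was −0.10 ± 0.13 (SD, n = 5; two-sided exact permutation within mice, p = 0.188, 6 of 32 assignments as large). C1q rose in CPM, and this ratio did not differ beyond its spread; whether other properties of the cells moved it was not tested.

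**Figure D3:**
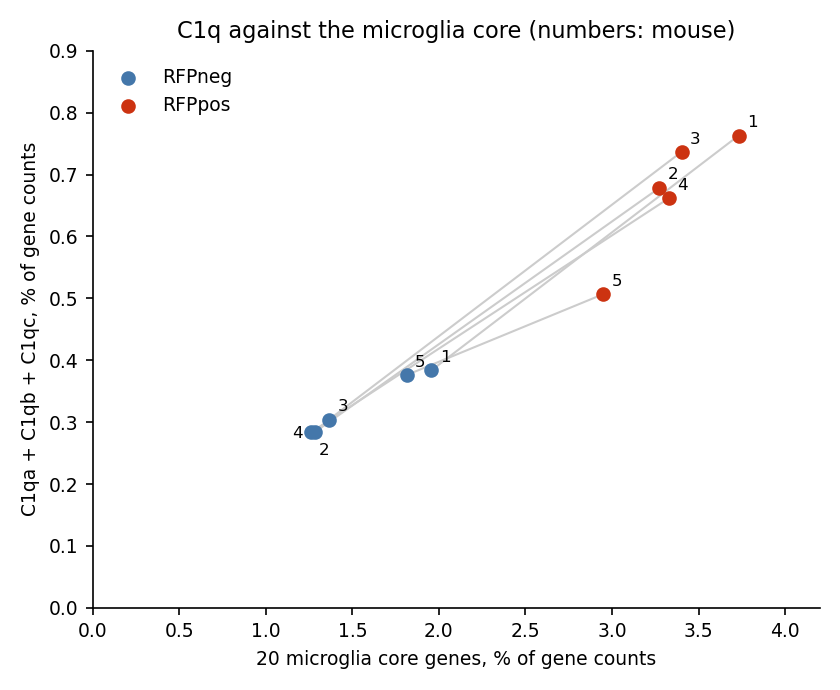
Summed C1qa, C1qb and C1qc against the summed 20 microglia core genes, each as % of gene counts, for 10 samples, with lines joining the RFPneg (blue) and RFPpos (red) sample of each numbered mouse. Both shares are higher in RFPpos, from 0.284% to 0.384% in RFPneg and 0.507% to 0.763% in RFPpos for C1q, and mouse 5 of RFPpos lies lowest in both.

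With the core as library size, the log2 fold change was 0.08 for C1qa (SE 0.167, edgeR adjusted p = 0.655), −0.09 for C1qb (adjusted p = 0.619) and −0.28 for C1qc (adjusted p = 0.150). This scaling moved the median of the 4210 genes to −1.16, and 0.261% were then called higher and 74.0% lower, 11 and 3117 genes in place of 427 and 489. Over all alternatives, the adjusted p lay between 3.72e-11 and 0.655 for C1qa, 1.14e-07 and 0.619 for C1qb, and 3.76e-06 and 0.150 for C1qc.

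Genes of the most similar pattern were sought among 1605 genes of at least 100 CPM on average. Over the 10 samples, the log2 CPM of the lysosomal protease gene Ctsb (Pearson r = 0.99), Tmem86a (0.99), the phosphatase gene Ssh2 (0.99), Ctss (0.98) and Csf1r (0.98), the receptor on which microglia survival depends, were closest to summed C1q. These samples fall into 2 populations that differ in most microglia genes. After each population's mean was subtracted, the closest were Sec61a1 (0.98), a subunit of the channel through which proteins enter the endoplasmic reticulum, Epb41l2 (0.96), Pip4k2a (0.94), Tmem86a (0.94) and Ctsb (0.93). The median was 0.74 for the 20 core genes and 0.10 for all 1605. These values describe 10 libraries that share preparation and have no p.

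The receptors for the small fragments come next. C3ar1, the C3a receptor, was at 197, 204, 130, 185 and 190 CPM in RFPneg and at 494, 435, 574, 427 and 375 CPM in RFPpos. Every RFPpos sample was above every RFPneg sample, and mouse 3 held both the lowest RFPneg and the highest RFPpos value. The log2 fold change was 1.35 (SE 0.203, edgeR adjusted p = 8.06e-05). Relative to the microglia core it was 0.21 (adjusted p = 0.370, from 4.81e-09 to 0.370 over all alternatives).

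C5ar1, the main C5a receptor, had 4, 0, 2, 0 and 5 counts in RFPneg and 4, 6, 2, 7 and 11 in RFPpos. Only 2 of the RFPneg and 4 of the RFPpos samples were above the 3 counts that a count of 0 allows, and the groups overlapped. The means were 8.81 ± 10.3 and 24.2 ± 13.6 CPM (SD, n = 5), higher in 4 of 5 mice. The log2 fold change of 1.68 (SE 0.795, edgeR adjusted p = 0.181 among 12270 genes) did not pass, where 4.27% of those genes were called higher and 7.49% lower.

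Its paralogue C5ar2 was better measured, at 95.9, 61.2, 62.5, 24.1 and 40.0 CPM in RFPneg and 139, 128, 139, 124 and 119 CPM in RFPpos. The groups did not overlap and RFPpos samples were closer to each other, with 3 of the RFPneg samples above the filter level. Its log2 fold change was 1.27 (SE 0.290, edgeR adjusted p = 0.00352), and 0.14 relative to the core (adjusted p = 0.681, from 1.72e-04 to 0.681 over all alternatives).

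The receptor for C3 fragments on phagocytes, CR3, is a pair of integrin chains. Itgam, its alpha chain, was at 824, 551, 695, 423 and 677 CPM in RFPneg and 1627, 1208, 1206, 1357 and 1013 CPM in RFPpos, and Itgb2, its beta chain, at 177 to 243 and 334 to 467 CPM. Neither gene's ranges overlapped. The log2 fold changes were 1.03 (SE 0.183, edgeR adjusted p = 4.21e-04) and 0.97 (SE 0.188, adjusted p = 8.91e-04), and −0.11 and −0.16 relative to the core. Itgax, the alpha chain of CR4, had 16 counts in RFPneg and 25 in RFPpos and was not called (edgeR adjusted p = 0.556).

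Neutrophils also carry Itgam, Itgb2 and C5ar1. The 6 neutrophil markers summed to 0.233% to 0.716% of counts in RFPneg and 0% to 0.0193% in RFPpos. S100a8 was the most abundant in RFPneg (1952 and 23.1 CPM on average), and Ly6g had 9 counts in RFPneg and 0 in RFPpos. In the first fit 5 of 5 tested were called lower, where 11.6% of all tested genes were. Retnlg, Camp and Ngp were under the filter level in every RFPpos sample. A filter passed through RFPneg alone favours genes that are lower in RFPpos, so the count is a description. The part of neutrophils in the receptor levels was not tested.

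Cd93 moved the other way. This transmembrane glycoprotein of endothelial and myeloid cells, once described as a C1q receptor, was at 90.2, 245, 221, 330 and 197 CPM in RFPneg and 0, 6.90, 13.4, 24.0 and 8.24 CPM in RFPpos. It fell in all 5 mice without overlap (log2 fold change −4.39, SE 0.351, edgeR adjusted p = 4.05e-08). The 8 endothelial markers summed to 0.377% ± 0.152 in RFPneg and 0.0190% ± 0.00976 in RFPpos (SD, n = 5). Flt1 was the most abundant in RFPneg (1285 and 32.9 CPM). In the first fit 6 of 6 tested were called lower, where 11.6% of all tested genes were. Ly6c1 and Itm2a were under the filter level in every RFPpos sample, so this count is also a description. The part of endothelial cells in Cd93 was not tested.

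The components that C1q acts on were scarce. C4b, the C4 gene, had 3, 15, 7, 7 and 8 counts in RFPneg and 2, 11, 4, 7 and 0 in RFPpos, or 33.0 ± 24.9 and 18.6 ± 15.0 CPM (SD, n = 5). The groups overlapped, mouse 2 was highest in both, and 4 of 5 mice were lower in RFPpos. Its log2 fold change of −0.79 (SE 0.606, edgeR adjusted p = 0.520) did not pass. Relative to the core it was −2.04 (adjusted p = 0.00283, from 0.00283 to 0.809 over all alternatives), where 48.9% of the 12270 genes were called lower.

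C3, the central component, had 0, 3, 1, 0 and 2 counts in RFPneg and 0 in all 5 RFPpos samples. No library exceeded 3 counts, so no fold change is given. The 0 of 1228605 counts in RFPpos allows up to 2.44 CPM. RFPneg averaged 4.88 ± 6.43 CPM (SD, n = 5), and a difference was not detectable at this depth. Of the factors of the early steps, C1ra, a protease of C1, had 20 and 6 counts in RFPneg and RFPpos, C2 had 9 and 1, and Cfp (properdin) 15 and 3, none called.

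Regulators of complement gave calls in both directions. Csmd3, a membrane protein with complement control domains, was at 135, 30.6, 36.1, 44.3 and 40.0 CPM in RFPneg and 198, 173, 22.4, 120 and 152 CPM in RFPpos. Mouse 3 went against the other 4 mice, and the RFPneg sample of mouse 1 stood above the rest. The log2 fold change was 1.20 (SE 0.359, edgeR adjusted p = 0.0212), 0.93 without mouse 2 (adjusted p = 0.120) and 0.08 relative to the core (adjusted p = 0.849, from 0.00113 to 0.849 over all alternatives). The call was also lost without mouse 4, without mouse 5 and with DESeq2 (adjusted p = 0.0623, 0.0864 and 0.0518). Csmd1 and Csmd2 were not called (edgeR adjusted p = 0.106 and 0.310), but Csmd1 at 1.96 was called higher with the likelihood ratio test and, at 2.91, without mouse 2 (adjusted p = 0.0482 and 0.0284, from 0.0284 to 0.438 over all alternatives).

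Clu (clusterin) and Vtn (vitronectin), which block assembly of the terminal complex, and Cd59a, which does so on the membrane, were lower. Clu was at 367, 479, 452, 423 and 501 CPM in RFPneg and 13.5, 107, 265, 463 and 243 CPM in RFPpos, lower in 4 of 5 mice and overlapping through mouse 4. The log2 fold changes were −1.31 for Clu (SE 0.347, edgeR adjusted p = 0.00992), −1.32 for Vtn (SE 0.379, adjusted p = 0.0169) and −1.19 for Cd59a (SE 0.405, adjusted p = 0.0422). The RFPpos sample of mouse 1 was the lowest for all 3, at 4.49 CPM for Vtn and for Cd59a. Clu is an astrocyte gene as well. The 8 astrocyte markers summed to 0.0890% of counts in the RFPpos sample of mouse 1. The other RFPpos samples had 0.264% to 0.504% and the RFPneg samples 0.330% to 0.493%. Slc1a2 was the most abundant in RFPneg and Slc1a3 in RFPpos. In the first fit 1 of 6 tested was called lower, where 11.6% of all tested genes were. The part of astrocytes in Clu was not tested.

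Some of these calls hung on the model or on 1 mouse. Without the mouse in the model as a block, Clu was at −1.06 (adjusted p = 0.0608, from 1.20e-06 to 0.0840 over all alternatives), and its call was also lost with DESeq2 and without mouse 2 (adjusted p = 0.0840 and 0.0606). Cd59a kept its call in only 3 of 14 alternatives other than scaling to the core. It was at −1.14 without the block (adjusted p = 0.0635, from 1.86e-04 to 0.169 over all alternatives), and the call was lost on leaving out any 1 mouse, with DESeq2, with limma, with library size alone and with either wider filter. Vtn lost its call without mouse 2 or without mouse 4 (adjusted p = 0.0559 and 0.0520, from 7.98e-05 to 0.0559). Serping1, the C1 inhibitor, fell in the second fit (41 and 8 counts, log2 fold change −2.27, SE 0.772, edgeR adjusted p = 0.0316), but not with DESeq2 or without mouse 1, 2, 3 or 5 (adjusted p from 1.60e-05 to 0.221 over all alternatives). Cr1l, Cd46 and Cd55, membrane regulators, were not called (edgeR adjusted p = 0.523, 0.132 and 0.677), but Cd46 was called lower with limma (adjusted p = 0.0377, from 0.00136 to 0.512 over all alternatives).

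Of 55 genes of the complement list, 35 had at least 1 count and 25 at least 10. In the first fit 13 were tested, of which 8 were called higher and 4 lower, with a median log2 fold change of 0.97 where that of all tested genes was −0.03 and 10.1% were called higher and 11.6% lower. Beside the 7 members, 9 of 48 genes were tested, with 4 called higher and 4 lower and a median of −0.24. Relative to the core, 0 of the 13 were called higher and 5 lower, where 0.261% and 74.0% of all tested genes were. Of the 13, 7 lay wholly above and 2 wholly below in RFPpos, where 8.05% and 7.93% of all tested genes did. C5ar2, Cd93, Cd59a and Csmd3 reached the filter level in 3 or fewer samples of the population where they were lower; a filter passed in this way favours genes that differ, so the counts are a description. In the second fit, 8 of 25 were called higher and 4 lower, against 4.27% and 7.49% of all genes in it, and the median was −0.70 against −0.15.

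By role, 3 of 3 tested genes of the C1 complex and 4 of 5 tested receptors were called higher and 1 receptor lower. Of the regulators, 1 of 5 was called higher and 3 lower. Among all 4210 genes of that fit, 10.1% were called higher and 11.6% lower. None of the 9 lectin pathway genes was tested in the first fit and 6 had 0 counts; Colec12, a scavenger receptor of that family, was not called in the second (edgeR adjusted p = 0.709). All 7 genes of the terminal components (Hc, which codes for C5, to C9) had 0 counts in all 10 samples.

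**Figure D4:**
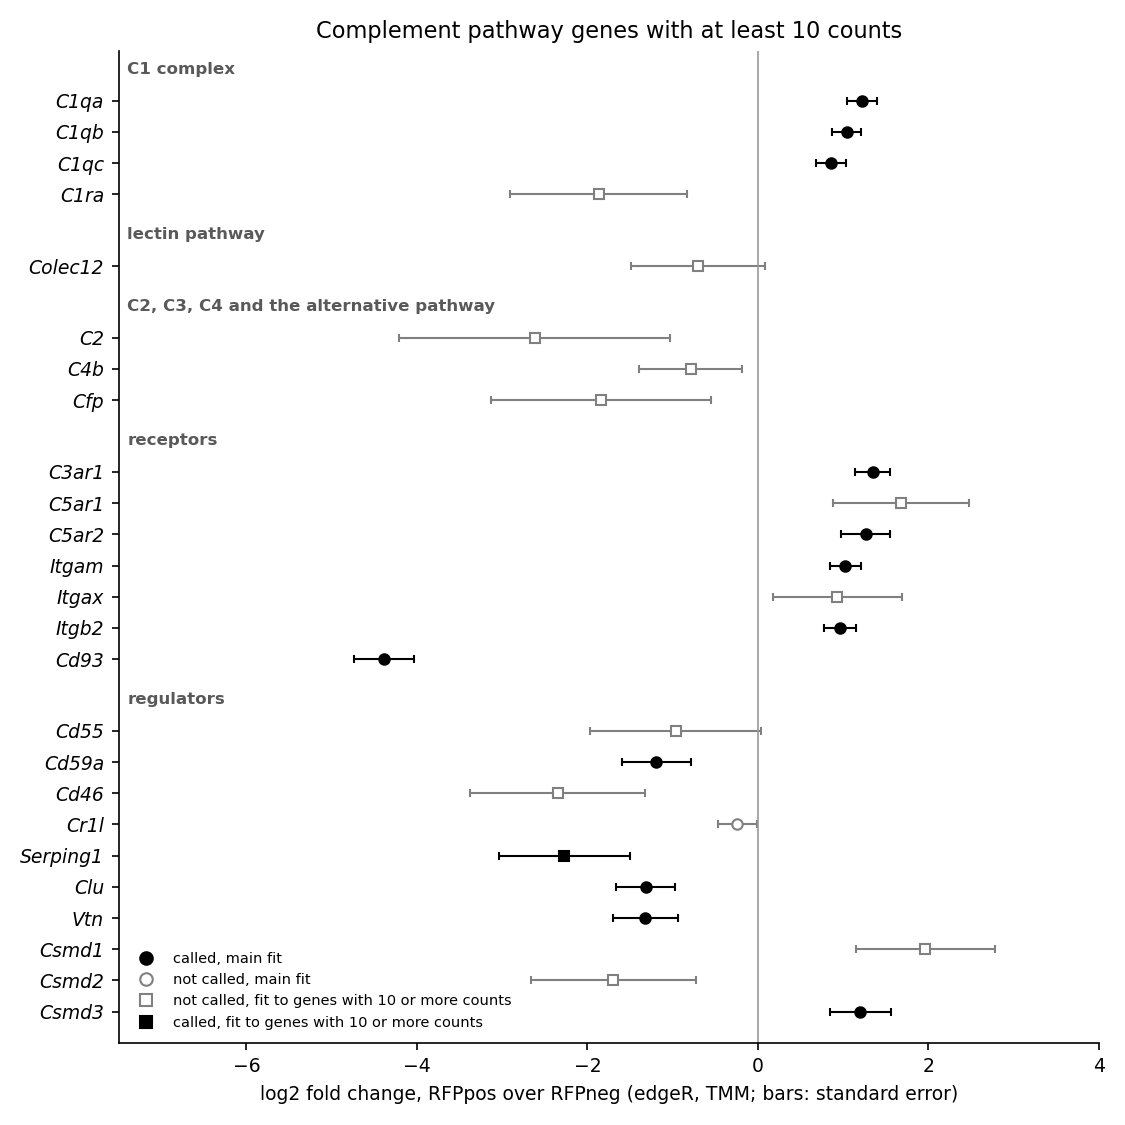
log2 fold change of RFPpos over RFPneg (edgeR with TMM, bars for SE) of the 25 complement genes with at least 10 counts, grouped by role; filled marks are called at an adjusted p under 0.05, and squares come from the fit to 12270 genes. C1q chains, C3ar1, C5ar2, Itgam and Itgb2 lie between 0.86 and 1.35, Cd93 at −4.39; relative to the microglia core the signs of C1qb, C1qc, Itgam, Itgb2 and Itgax turn.

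The other marker lists show what else the gates held. The 9 markers of CNS-associated macrophages, which also make C1q and C3ar1, summed to 0.0203% ± 0.00168 in RFPneg and 0.0206% ± 0.00673 in RFPpos (SD, n = 5), with Mrc1 the most abundant (52.5 and 79.5 CPM, not called). The RFPpos mean rests on mouse 2, at 0.0318% where the other RFPpos samples had 0.0144% to 0.0214%, and only that mouse was higher in RFPpos. The genes went both ways, Cd163 from 9 to 24 counts and F13a1 from 57 to 20, Siglec1 had 2 counts in all, and 0 of 8 tested in the second edgeR fit were called. The 6 monocyte markers summed to 0.0953% and 0.00984% on average, with H2-Aa the most abundant (585 and 70.6 CPM), 3 of 3 tested called lower, and Ly6c2 and Chil3 at 0 in RFPpos. Their part in the complement values was not tested. Oligodendrocyte markers averaged 0.167% and 0.0239%, with 6 of 6 tested in the first fit called lower, and those of mural cells and fibroblasts 0.0396% and 0.00711%, with 2 of 3. Neuron markers averaged 0.0127% and 0.00588%, with 0 of 1 called in the first edgeR fit and 1 of 4 called lower in the second. Those of choroid plexus and ependyma averaged 0.308% and 0.0784%, with 2 of 2 called lower in the first. Of all tested genes, 11.6% were called lower in the first fit and 7.49% in the second. Ccr2, Cd74, Cldn11 and Rgs5 were under the filter level in every RFPpos sample, so the counts of these lists are a description.

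**Figure D5:**
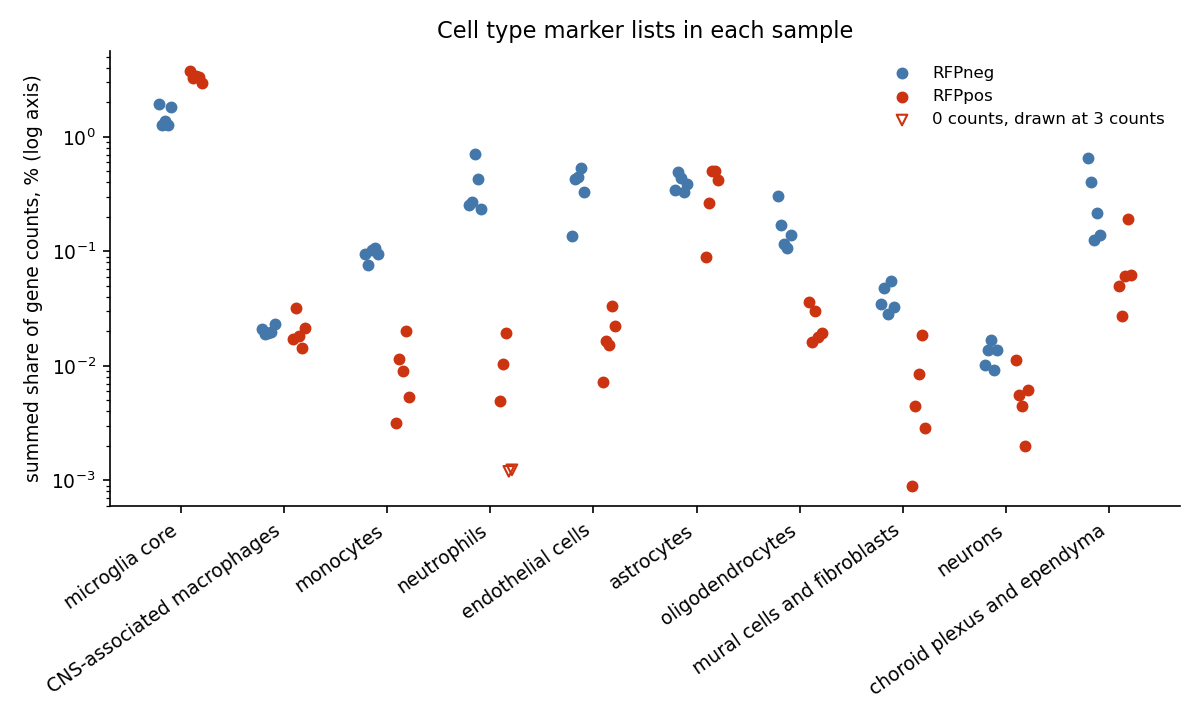
Summed share of gene counts (%, log axis) of 10 lists of cell type markers in each RFPneg (blue) and RFPpos (red) sample; open triangles are samples with 0 counts, drawn at 3 counts. Microglia core genes are higher in RFPpos, CNS-associated macrophage and astrocyte markers overlap, and neutrophil, monocyte, endothelial and oligodendrocyte markers are lower in every RFPpos sample.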

How the data were processed

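Sorted RFPneg and RFPpos cells of 5 mice were measured by QuantSeq 3′ FWD RNA sequencing. The authors deposited whole-number counts per gene, not normalized, made with the Lexogen QuantSeq FWD UMI pipeline. Whether reads were collapsed by molecular identifier, the annotation and the strand setting are not given in the sources used here, and the labels list build mm10 for the series. Reads on no gene, 32.1% to 48.6% of a sample, and ambiguous reads, 0.295% to 0.436%, stayed out of library sizes. Symbols matched 47224 of 47643 identifiers in GENCODE M21, which gave coordinates.

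Counts were fitted with edgeR 4.0.16 in R 4.3.3 (quasi-likelihood, TMM, filterByExpr with a minimum count of 10, mouse as a block, Benjamini-Hochberg), and single values by exact permutation within mice in Python 3.11.15. The scripts were tested on simulated data. The study's methods state that both populations came from the same mice, and samples were paired by the number in their titles. Correlations of paired deviations from the population means were 0.22, −0.04, 0.14, −0.01 and 0.01. These values do not establish the pairing by number, which was taken as given. Alternatives were DESeq2 1.42.0, limma 3.58.1 with voom, the likelihood ratio test, other scalings and filters, no block, and each mouse left out. The members and lists were chosen with earlier results of these data known. Named genes are the members, other complement genes with at least 10 counts, 3 microglia markers, the 5 genes closest to C1q by each of 2 correlations, single genes of the marker lists, and Cdkn2a. A gene of the complement list is not reported here. Single-cell samples were not analysed here.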

Additional observations from a re-analysis of the deposited data

Results flagged for a closer look

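Among 62 groups of 5 samples examined, 7 held a sample whose gap to its nearest neighbour, as a share of the range, was above Dixon's 95% critical value for 5 samples, where chance gives about 3.1. For C3ar1, the RFPneg sample of mouse 3 was low at 130 CPM, against 185 to 204 CPM in the other RFPneg samples. For C4b, the RFPneg sample of mouse 2 was high at 76.5 CPM, against 16.8 to 28.2 CPM. Of the regulators, the RFPneg sample of mouse 1 was low for Cd59a at 28.2 CPM, against 72.1 to 83.4 CPM, and high for Csmd3 at 135 CPM, against 30.6 to 44.3 CPM. For Colec12, the RFPpos sample of mouse 3 was high at 58.3 CPM, against 0 to 13.8 CPM. For C2, the RFPpos sample of mouse 4 held the single count of its population, 3.99 CPM. A single count meets the rule whatever its size, so this is no sign of an unusual sample, although it is among the 7. The log2 ratio of C1qa to C1qb was low in the RFPpos sample of mouse 1 at 0.20, against 0.74 to 0.81 in the other RFPpos samples; the RFPneg sample of that mouse was also the lowest of its population, at 0.17 against 0.45 to 0.71.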

How the results depend on the processing

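The log2 fold changes of C1qa, C1qb, C1qc and C3ar1 kept their sign and their side of the threshold in 14 of 14 alternatives other than scaling to the microglia core, at 1.14 to 1.35, 0.99 to 1.16, 0.81 to 1.01 and 1.17 to 1.43. C5ar1 and C4b kept theirs, not called, in 13 of 13, at 1.26 to 2.28 and −1.03 to −0.40. Relative to the core the calls of C1qa (0.0827), C3ar1 (0.21), C5ar2, Csmd3 and Tmem119 were lost, C4b (−2.04), C1ra, Colec12, C2, Cfp, Cd46, Cr1l and Csmd2 were called lower, and the signs turned, with no call, for C1qb (−0.0942), C1qc (−0.28), Itgam (−0.11), Itgax (−0.19), Itgb2 (−0.16), P2ry12 (−0.11) and Cx3cr1 (−0.23); this follows from the scaling, which sets the core at 0.

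In place of 427 genes higher and 489 lower, that scaling gave 11 and 3117, and an absolute log2 fold change above 1 left 242 and 385. With at least 10 counts, 524 genes were higher and 919 lower, and 460 and 834 with no filter, where more genes were tested. Without the mouse as a block, 435 were higher and 482 lower, C1qa was at 1.21, and of the complement genes and 3 microglia markers named, only Cd59a and Clu lost their calls. Leaving out each mouse gave 303 to 398 higher and 347 to 436 lower. The log2 C1q to core ratio stayed between −0.15 and −0.06 with each mouse left out and was −0.09 as a mean of log2(CPM + 1). The C1qa to C1qc, C1qa to C1qb and C1qb to C1qc log2 ratios stayed at 0.31 to 0.44, 0.14 to 0.22 and 0.15 to 0.22, and no exact test with 4 or 5 pairs can pass 0.05. C2 and Cfp had no adjusted p in DESeq2. Leaving out each mouse for the correlations was chosen after seeing the data; the lowest r was 0.89.

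At 177287 to 415834 counts a library, C3, C4b, C5ar1 and most early components had few counts, and whether deeper libraries would give a call was not tested.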

Other observations

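Cdkn2a, the gene that holds p16, had 8 counts in RFPneg, in 3 of 5 libraries, and 0 in RFPpos, where a count of 0 allows up to 2.44 CPM over the population. These are fewer than the 10 counts asked for a test, so no difference is stated.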
